A study of Mus musculus with 48 samples.

Results

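The genes described here are the nuclear-encoded genes of the mitochondrial respiratory chain and ATP synthase, measured in mouse liver. They were taken by gene symbol: every row of the deposited count table that begins with Ndufa, Ndufb, Ndufc, Ndufs, Ndufv, Sdh, Uqcr, Cox4 to Cox8 or Atp5, leaving out pseudogene symbols and the Ndufaf assembly factors. Of 89 such rows, 80 reached a mean of 5 CPM, counts scaled to the same library total (with the albumin gene Alb left out of the library totals) over the 48 libraries, out of 22354 genes in the table. The 36 genes of complex I comprise 7 core catalytic and 29 accessory subunits. Complex II has 4 genes, complex III 8, complex IV 11 and complex V 15, of which 5 encode F1 subunits and 10 stalk or membrane subunits. The remaining 6 genes carry the symbol prefix without encoding a subunit: the succinate dehydrogenase assembly factors Sdhaf1 and Sdhaf2, the supercomplex factor Cox7a2l, and Atp5s, Atp5sl and Cox4nb.

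The 9 rows under 5 CPM were mostly isoforms known from muscle, testis or hypoxic tissue, such as Cox6a2 at 0.0323 CPM, Cox8b at 0.0853 CPM, Cox7a1 at 1.65 CPM and Ndufa4l2 at 0.908 CPM. The lowest genes kept were Atp5s at 8.87 CPM and Sdhaf1 at 18.7 CPM, so no gene lay close above the limit. All 80 genes passed the filter on low counts and were tested.

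Complexes I and II pass electrons from NADH and succinate to coenzyme Q, complex III hands them to cytochrome c, and complex IV reduces oxygen. Complexes I, III and IV pump protons across the inner mitochondrial membrane, and complex V, the ATP synthase, uses that gradient to make ATP. Their nuclear genes are known to be driven together by transcription factors such as NRF1, GABPA and ERRα, and mitochondrial metabolism in liver is known to vary over the day.

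The study compared liver RNA from C57BL/6 mice in which loxP-flanked Bmal1 alleles (the clock transcription factor gene, Arntl in the table) were combined with an aP2-driven Cre (labelled KO) with wild-type littermates (WT). The mice had been in constant darkness for 36 h and were killed in the dark every 4 h for 20 h, with food and water freely available. The design text describes males of 4 to 6 months and 4 mice per genotype and time, whereas the labels give 5 WT and 3 KO libraries at 16 h and 4 elsewhere, or 25 WT and 23 KO libraries. No other treatment is named, and whether the WT littermates carried floxed alleles or Cre was not given in the sources used here. The aP2 (Fabp4) promoter is used to delete genes in adipocytes, so hepatocytes were not the intended site of deletion, and the series title calls the model an adipocyte knockout.

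Totals were nearly equal, at 12841969 to 13009797 counts per library, and the 80 genes took between 1.05% and 2.26% of them. Arntl itself was 37.0 ± 5.94 CPM (SD, n = 4) in WT and 32.4 ± 4.01 CPM (SD, n = 4) in KO at 0 h, and 2.14 ± 0.712 CPM and 3.68 ± 2.14 CPM at 8 h. At 4 h it was 21.1 ± 9.3 CPM in WT and 9.54 ± 2.75 CPM in KO, and at 12 h 2.02 ± 1.12 CPM and 6.34 ± 5.15 CPM. At 16 h it was 16.2 ± 2.92 CPM (SD, n = 5) in WT and 26.3 ± 8.74 CPM (SD, n = 3) in KO. At 20 h it was 32.3 ± 3.66 CPM and 32.1 ± 3.49 CPM. The KO mean was thus lower at 4 h and higher at 12 h and 16 h, which an average over times partly cancels. Over the 6 times Arntl differed by 0.30 ± 0.16 on the log2 scale (SE, adjusted p = 0.347, edgeR). Its count covers the whole gene, including what lies outside the deleted part, and cannot check the deletion. Although the labels also name adipocytes as the cell type, the summed CPM of 8 hepatocyte markers was 22300 to 54100 and that of 10 adipocyte markers 166 to 1620 CPM in WT (median 660) and 159 to 3060 CPM in KO (median 966), highest in replicate 2 of KO at 8 h. Most of the adipocyte sum was Car3, and Fabp4 averaged 8.17 CPM among WT livers and 8.96 CPM among KO livers. Every library held at least 3029 Xist counts and at most 1 count of 3 Y-linked genes, which goes against the design text's males. Pancreatic markers summed to 336 CPM in replicate 2 of KO at 0 h and adrenal markers to 132 CPM in replicate 3 of WT at 0 h, against at most 11.2 CPM of pancreatic markers in WT and 4.93 CPM of adrenal markers in KO. Lymphocyte markers summed to 1230 CPM in replicate 5 of WT at 16 h, against a WT median of 28.7 CPM and at most 48.5 CPM in KO, and that library had the lowest summed respiratory chain level of its group, 15314 CPM.

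Expressed per kilobase of transcript, the most abundant genes belonged to complexes III, IV and V. Ndufa4, now counted with complex IV, led at 1070 CPM per kb, followed by Uqcrh, the hinge protein of complex III, at 805 CPM per kb. Uqcrq and Atp5g3, one of the genes for the proton-carrying c ring, were at 719 CPM per kb, and the catalytic β subunit gene Atp5b at 664 CPM per kb. Sdha, the flavoprotein of complex II, was the highest of its complex at 271 CPM per kb, and Ndufa6 the highest of complex I at 636 CPM per kb. The non-subunit genes Atp5s (12.3 CPM per kb), Sdhaf2 (15.1 CPM per kb) and Sdhaf1 (7.52 CPM per kb) were at the bottom of the range. Annotated transcripts of the 80 genes were short, with a median length of 707 bases against 2081.5 bases over all genes with a value. Each length is a median over a gene's annotated protein-coding transcripts, whichever of them liver uses. Close ranks, such as Sdha before Sdhd at 256 CPM per kb, therefore depend on the annotation.

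The summed level of the 80 genes was 17384 ± 2567 CPM (SD, n = 25) in WT and 17570 ± 2632 CPM (SD, n = 23) in KO. The lowest, median and highest WT libraries stood at 10578, 17454 and 23058 CPM, and the KO libraries at 13191, 17271 and 23882 CPM. The ranges of the genotypes thus overlapped almost entirely. In bulk tissue, fewer cells of a type and less RNA per cell cannot be told apart.

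**Figure D1:**
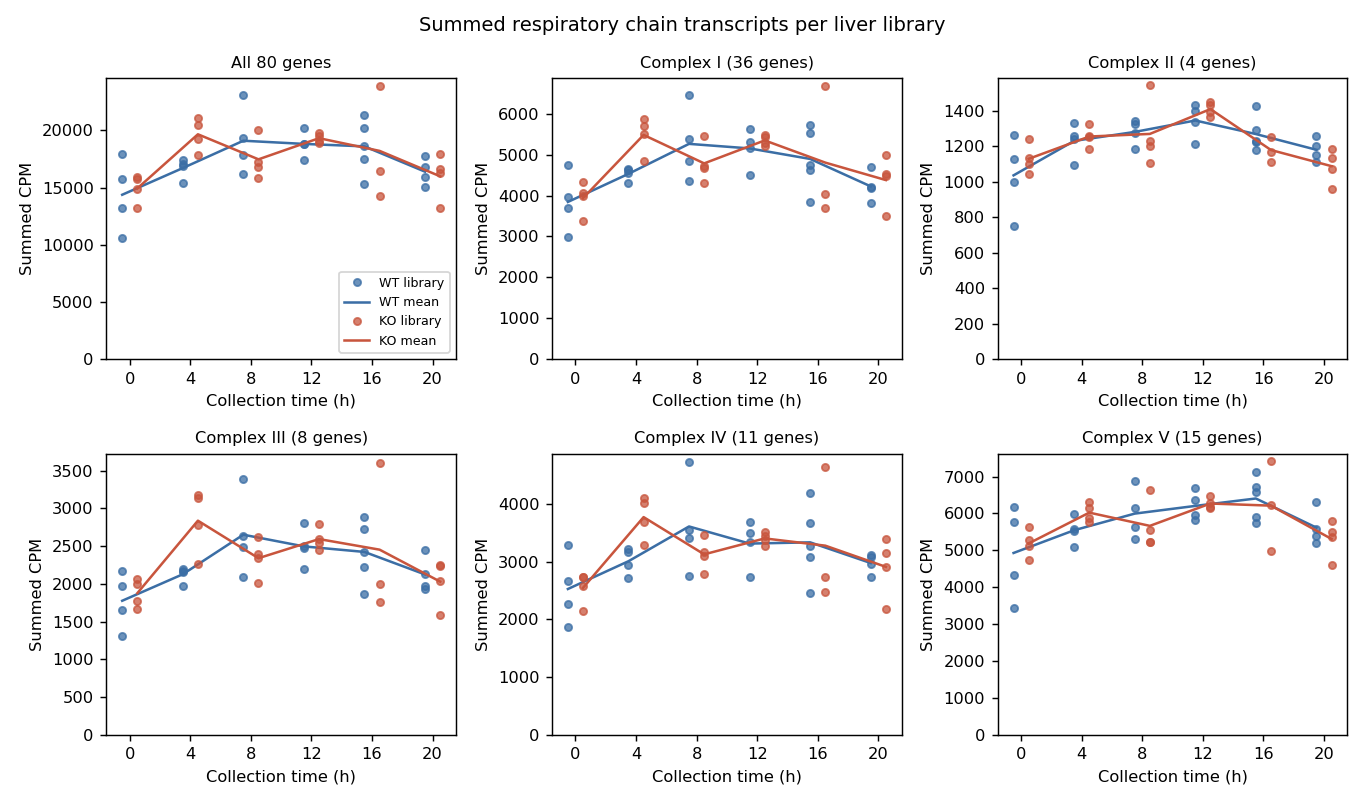
Summed CPM of all 80 genes and of the genes of each complex (vertical axes, starting at 0) against collection time in hours, with 1 point per library and lines through the group means, WT in blue and KO in red and drawn slightly apart at each time. KO libraries lie above all WT libraries at 4 h for the sum of all genes, and the 3 KO libraries at 16 h are spread from 14284 to 23882 CPM.

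Averaged over the 6 times, no respiratory chain gene differed between KO and WT at an adjusted p under 0.05 by edgeR's quasi-likelihood test, with Benjamini-Hochberg adjustment over all 13646 genes tested. The same test called 1.4% of all genes. DESeq2 called 0 of the 80 genes as well, against 2.15% of all genes with an adjusted p. By edgeR, 3 of the 80 had an unadjusted p under 0.05 (2 higher and 1 lower in KO), or 3.75% against 17.1% of all genes. The estimate was higher in KO for 53 genes and lower for 27, with a median of 0.04 on the log2 scale against -0.005 over all genes. The direction of these small estimates rested on 1 library, since without replicate 3 of KO at 16 h 33 of 80 were higher and the median was -0.01. With the GC content of transcripts taken out (described with the 4 h comparison) 64 of 80 were higher, with a median of 0.07. All 80 estimates lay between -0.24 and 0.23, and the median standard error of a gene was 0.09.

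Within complex I, 25 of 36 estimates were higher in KO (median 0.05). Ndufs7, a core subunit that holds an iron-sulfur cluster, ranged in WT from 68.5 through a median of 102 to 190 CPM and in KO from 71.8 through 85.2 to 137 CPM. It had the lowest p of the 80 genes, at -0.24 ± 0.10 (log2, SE, adjusted p = 0.213, edgeR), and the genotypes overlapped. With the GC content of transcripts taken out its estimate was 0.004. Ndufb3, an accessory subunit of the membrane arm, ranged from 36.2 through 74.5 to 137 CPM in WT and from 47.6 through 87.2 to 146 CPM in KO. Its difference was 0.22 ± 0.10 (log2, SE, adjusted p = 0.244, edgeR), again with overlapping genotypes. Ndufv1, the flavin-binding core subunit that accepts electrons from NADH, had an estimate of -0.22 ± 0.12 (log2, SE, adjusted p = 0.34, edgeR).

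In complex II, 2 of 4 estimates were higher in KO (median -0.01), and in complex III 7 of 8 (median 0.04), where Uqcrb had the lowest p at 0.18 ± 0.11 (log2, SE, adjusted p = 0.407, edgeR). Complex IV split into 6 higher and 5 lower (median 0.09), and complex V into 10 higher and 5 lower (median 0.03). Atp5j, the coupling factor 6 of the ATP synthase stalk, had the lowest p of complex V at 0.18 ± 0.10 (log2, SE, adjusted p = 0.345, edgeR). Among the 6 genes that are no subunit, Sdhaf2, which helps to attach flavin to Sdha, ranged from 24.1 through 29.7 to 40.0 CPM in WT and from 26.5 through 32.3 to 39.6 CPM in KO. Its difference of 0.13 ± 0.06 (log2, SE, adjusted p = 0.264, edgeR) did not pass the test and the ranges overlapped.

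**Figure D2:**
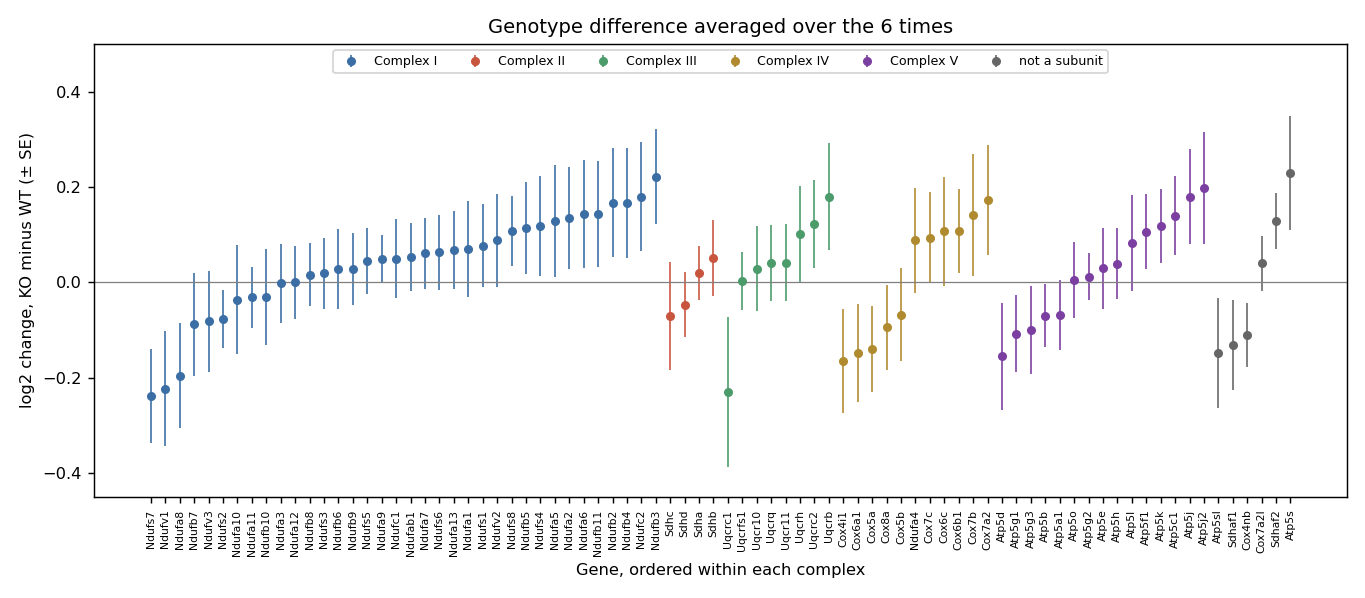
Genotype difference of each of the 80 genes averaged over the 6 times (vertical axis, log2 change of KO minus WT, point ± SE), ordered within each complex by size along the horizontal axis. All points lie between -0.24 and 0.23 and no complex stands on 1 side of 0.

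With all libraries in, the median difference was furthest from 0 at 4 h, while without replicate 3 of KO at 16 h it was further from 0 at 16 h (-0.35) than at 4 h (0.30). At 4 h the summed level of the 80 genes was 17102, 17405, 16902 and 15422 CPM in the WT libraries and 17820, 19263, 20471 and 21094 CPM in the KO libraries. All 4 KO libraries were above all 4 WT libraries. The estimate was higher in KO for 55 genes and lower for 25, with a median of 0.29 (log2) against -0.005 over all genes. No gene passed the adjusted threshold by edgeR, which called 0.0366% of all genes at that time, and DESeq2 called 0 of the 80. At an unadjusted p under 0.05 there were 28 genes, 27 higher and 1 lower in KO, or 35% against 23.3% of all genes. Estimates of cell type markers at that time were also uneven, with 1 of 8 hepatocyte markers higher in KO (median -0.38), 1 of 8 of endothelium (median -0.56), 0 of 5 tested of bile duct (median -0.60) and 5 of 5 tested of red blood cells (median 0.48). Higher in KO were also 7 of 9 macrophage markers (median 0.11), 6 of 8 of lymphocytes (median 0.31) and 2 of 8 of stellate cells and fibroblasts (median -0.32). The adipocyte, muscle, pancreas and adrenal lists had at most 3 tested markers each. None of the markers on these lists was called at 4 h. Their part in the difference was not tested.

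Atp5j had the lowest p at 4 h. Its level was 226, 227, 225 and 210 CPM in the WT libraries and 233, 366, 469 and 430 CPM in the KO libraries. Replicate 1 of KO stood beside the WT libraries and the other 3 well above them, with a difference of 0.76 ± 0.24 (log2, SE, adjusted p = 0.122, edgeR). Ndufb3 was at 84.2, 81.7, 77.1 and 61.3 CPM in WT and at 84.4, 137, 138 and 146 CPM in KO. The same KO replicate was the low one, and the difference was 0.73 ± 0.24 (log2, SE, adjusted p = 0.125, edgeR). Uqcrb, a small subunit of complex III that lies near the site of quinone binding, was at 195, 209, 199 and 187 CPM in WT and at 203, 317, 430 and 415 CPM in KO. Replicate 1 of KO was within the WT range here, and the difference was 0.79 ± 0.28 (log2, SE, adjusted p = 0.132, edgeR).

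Cox7b, a small subunit of complex IV, was at 210, 194, 227 and 195 CPM in WT and at 166, 325, 466 and 491 CPM in KO. Replicate 1 of KO was here the lowest of all 8 libraries. Ndufv1 was the 1 gene with an unadjusted p under 0.05 in the other direction, at 191, 188, 165 and 168 CPM in WT and at 195, 89.7, 66.9 and 99.2 CPM in KO. Replicate 1 of KO was the highest library and the other 3 KO libraries were below every WT library, with a difference of -0.66 ± 0.29 (log2, SE, adjusted p = 0.182, edgeR).

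Leaving out replicate 1 of KO at 4 h, edgeR called 26 of the 80 genes at that time, 25 higher and 1 lower in KO, with a median of 0.37 (log2) over the 80. It then called 24.6% of all genes. The 26 genes comprised Ndufv1, the 1 that was lower (-1.06 ± 0.30, log2, SE, adjusted p = 0.0181, edgeR without that library), and higher genes from complexes I, III, IV and V and among the non-subunits Atp5s and Sdhaf2, with none from complex II. Atp5j was then at 0.93 ± 0.25 (log2, SE, adjusted p = 0.0153, edgeR without that library) and Cox7b at 1.05 ± 0.31 (log2, SE, adjusted p = 0.0199, edgeR without that library). Leaving out replicate 3 of KO at 16 h gave 2 called genes at 4 h, against 2.32% of all genes, and leaving out both 16 h groups gave 4, against 4.07% of all genes.

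Size and direction of the 4 h difference went with the GC content of the transcript. For each library, the deviation of every gene from its mean over libraries was correlated with GC content, over the 13316 tested genes with a value. Over the 4 h libraries this coefficient was 0.521, 0.384, 0.022 and -0.02 in WT and 0.505, -0.362, -0.6 and -0.569 in KO, so that replicate 1 of KO stood with the WT libraries in this respect too. Across the 80 genes, which share these libraries, the log2 difference at 4 h had a correlation of -0.55 with GC content, and across all genes -0.55. The 40 respiratory chain genes with the lower GC content had a median difference of 0.46 (log2), with 35 of 40 higher in KO, and the 40 with the higher GC content a median of -0.02, with 20 of 40 higher. With a GC term for each library taken out through the offset, a setting added after the data had been seen, the estimate was higher in KO for 72 of 80 genes with a median of 0.34 against 0.01 over all genes. No gene was then called by edgeR, and 34 had an unadjusted p under 0.05, against 21% of all genes. The median over cytosolic ribosomal protein genes, which are also short, was 0.32 at 4 h and that over mitochondrial ribosomal protein genes 0.27, both without the GC term and close to the 0.29 of the respiratory chain.

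**Figure D3:**
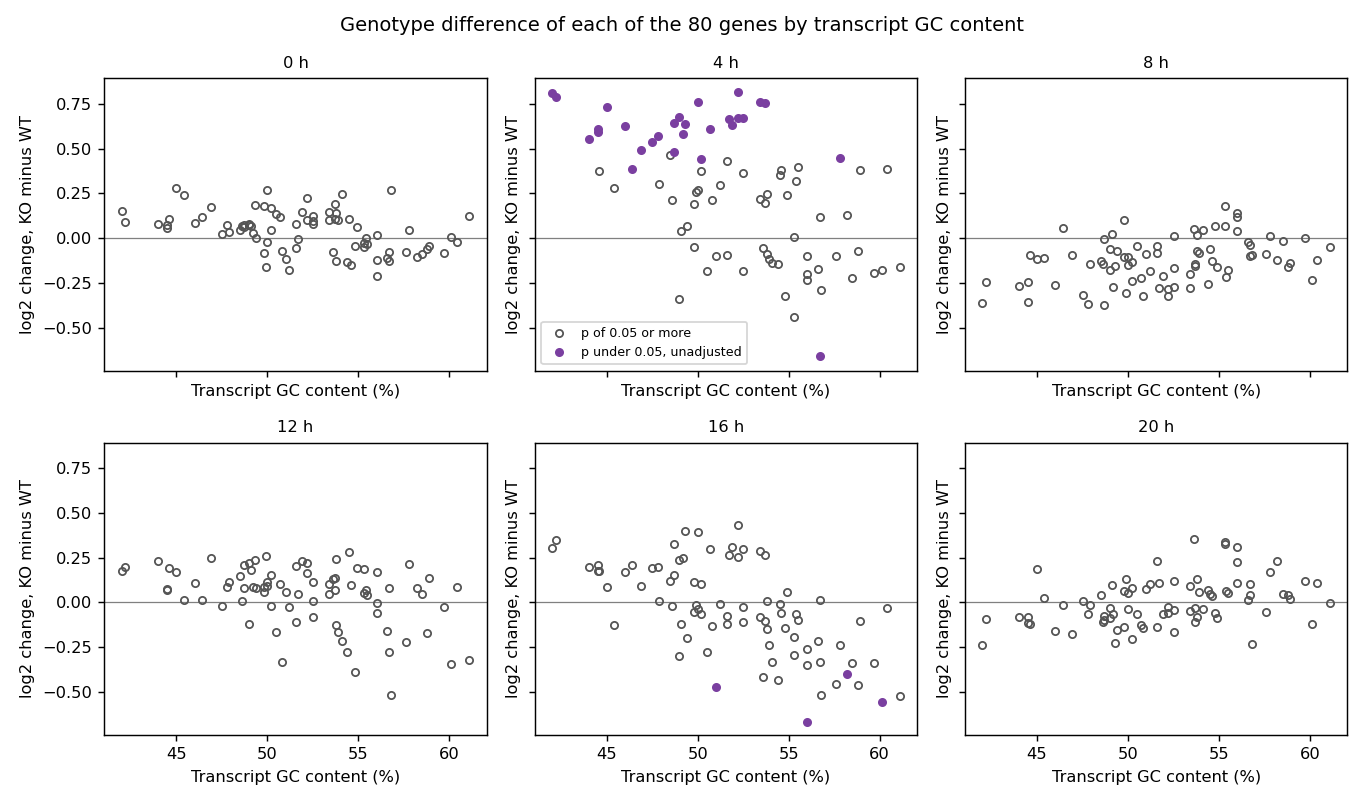
Log2 change of KO minus WT of each of the 80 genes (vertical axis) against the GC content of its transcripts in percent (horizontal axis) at each of the 6 times, with genes at an unadjusted p under 0.05 filled. At 4 h the filled points lie mostly above 0 and towards low GC content, and at 16 h the points slope downward with a correlation of -0.63.

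The other times held smaller differences, and at none did edgeR or DESeq2 call a respiratory chain gene. At 0 h, where edgeR called 0.0147% of all genes, 50 of 80 estimates were higher in KO (median 0.06) and none had an unadjusted p under 0.05. The lowest p belonged to Ndufab1, the acyl carrier protein of complex I, at 0.24 ± 0.17 (log2, SE, adjusted p = 1.00, edgeR). Without the adrenal-marked WT library, the pancreas-marked KO library and replicate 2 of KO at 16 h, 9 of 80 estimates at 0 h were higher in KO and the median was -0.14.

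At 8 h the balance was turned, with 15 estimates higher and 65 lower in KO and a median of -0.12 (log2) against 0.004 over all genes. All 8 genes of complex III, 10 of 11 of complex IV and 13 of 15 of complex V had a lower estimate. Atp5l, a membrane subunit of the ATP synthase, had the lowest p at -0.37 ± 0.25 (log2, SE, adjusted p = 1.00, edgeR). No gene of the 80 had an unadjusted p under 0.05, against 1.82% of all genes, and the adjusted test called 0% of all genes. At 12 h, 57 estimates were higher (median 0.08), 0 genes had an unadjusted p under 0.05 and 0% of all genes were called. The accessory subunit Ndufa9 had the lowest p there, at 0.18 ± 0.12 (log2, SE, adjusted p = 0.908, edgeR).

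At 16 h, 33 estimates were higher and 47 lower (median -0.05), with 0.022% of all genes called. An unadjusted p under 0.05 was found for 4 genes, and all 4 were lower in KO: Ndufv3, Ndufa11, Atp5g1 and Ndufs7. Ndufv3, an accessory subunit of the NADH-binding module, was at 63.9, 89.2, 77.7, 107 and 72.6 CPM in WT and at 74.8, 50.1 and 30.3 CPM in KO. Its highest KO library lay inside the WT range, and the difference was -0.67 ± 0.27 (log2, SE, adjusted p = 0.731, edgeR).

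Replicate 3 of KO at 16 h stood apart for the respiratory chain as a whole. The 3 KO libraries had summed levels of 14284, 16462 and 23882 CPM, against 15314 to 21310 CPM in the 5 WT libraries, and their GC coefficients were 0.163, 0.15 and -0.524. Without replicate 3, 2 of 80 estimates at 16 h were higher in KO and the median was -0.35 (log2) against -0.03 over all genes, still with 0 calls by edgeR. The direction turned with the library left out: without replicate 2 of KO at 16 h and the 2 marked libraries of 0 h, 49 of 80 estimates at 16 h were higher and the median was 0.08. Without replicate 5 of WT, the library with lymphocyte markers, 29 of 80 were higher, with a median of -0.12. At 20 h, 38 estimates were higher and 42 lower (median -0.02), 0 had an unadjusted p under 0.05 and 0% of all genes were called. Ndufa7, an accessory subunit, had the lowest p at 0.33 ± 0.18 (log2, SE, adjusted p = 1.00, edgeR).

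Whether the genotype difference varied over time was tested by an interaction term with 5 degrees of freedom. It called 0 of 80 genes by edgeR and by DESeq2, 0 had an unadjusted p under 0.05, and it called 0.00733% of all genes. The lowest p of the 80 was that of Ndufa11 (adjusted p = 0.953, edgeR). The difference at 4 h was not tested against that at 8 h by itself.

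The second question was how these genes vary over the day. A cosine curve of 24 h period was fitted to each genotype, with hours counted from the first collection, so that 1 cycle was sampled and no second cycle was there to check it. Among the 80 genes, edgeR called a rhythm at an adjusted p under 0.05 for 12 in WT, or 15% against 16.3% of all genes. In KO it called 6, or 7.5% against 17% of all genes. Shares in WT were therefore near the background, and 50% of the 80 genes in WT and 31.2% in KO had an unadjusted p under 0.05, against 31.5% and 34.3% of all genes. DESeq2 called 17 in WT, against 17.4% of all genes with an adjusted p, and 13 in KO, against 20.3%.

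Peaks were bunched. In WT, 69 of 80 fitted peaks fell between 6 h and 14 h, against 33.4% of all genes, with a median of 10.9 h. For KO it was 65 of 80 against 36.3% of all genes, with a median of 9.22 h. Median amplitudes, from mean to peak on the log2 scale, were 0.23 in WT and 0.21 in KO, close to the 0.22 and 0.25 of all genes. The genes share their libraries, so a library that was high or low for most of them moves all these peaks at once, and the bunching has no test here.

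**Figure D4:**
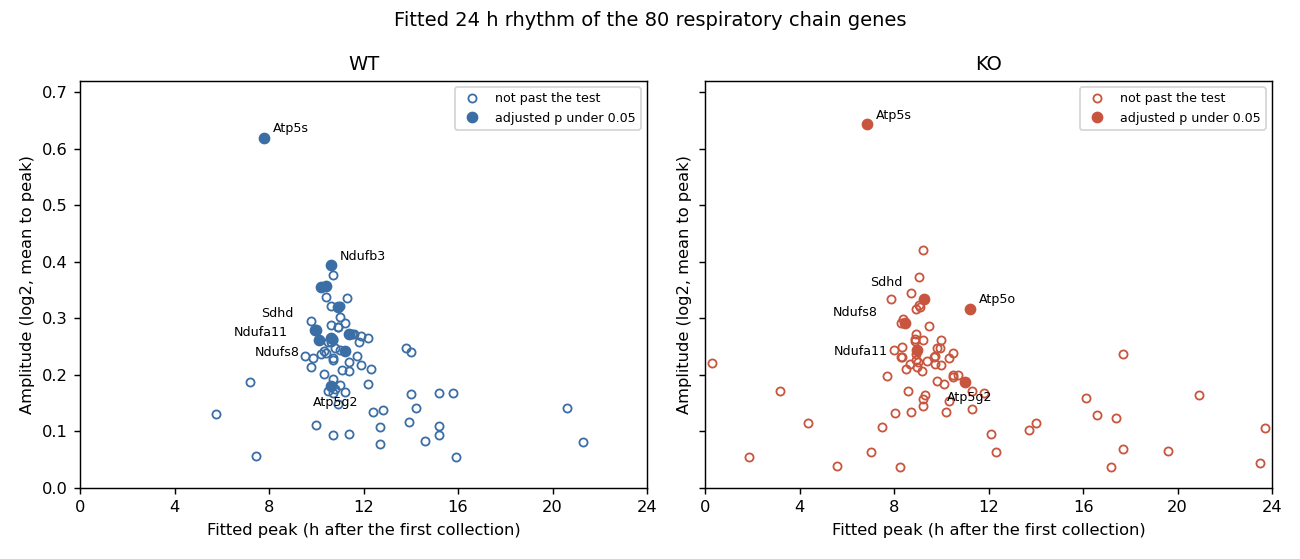
Fitted amplitude (vertical axis, log2 from mean to peak) against fitted peak time (horizontal axis, hours after the first collection) of the 80 genes in WT and KO, with called rhythms filled. Most points lie between 6 h and 14 h, and Atp5s stands above the others in both genotypes at 0.62 and 0.64.

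Of the 12 genes with a called rhythm in WT, 8 belonged to complex I, which holds 36 of the 80: the core subunits Ndufs8 and Ndufv2 and the accessory subunits Ndufa11, Ndufa12, Ndufb3, Ndufb9, Ndufs4 and Ndufs6. Complex II gave Sdhd, complex III Uqcr10, complex IV none of 11 and complex V Atp5g2, beside the non-subunit Atp5s. Those 12 peaked between 7.79 h and 11.4 h with amplitudes of 0.18 to 0.62. Calls in KO were Ndufs8, Ndufa11, Sdhd, Atp5g2, Atp5o and Atp5s, with peaks between 6.86 h and 11.2 h, and 5 of these 6 were also among the 12 of WT. A test of the difference between the genotypes' curves called 0 of 80 genes by edgeR and by DESeq2, 0 had an unadjusted p under 0.05, and it called 0.00733% of all genes. Rhythms called in WT and not in KO are therefore not shown to differ between them.

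Atp5s (chromosome 12, 70825949 to 70845645, mm9) had the widest swing. Also known as factor B, its product is associated with the ATP synthase without being a core subunit. Its WT libraries were at 4.02, 7.34, 6.22 and 8.35 CPM at 0 h, at 12.0, 16.0, 11.1 and 9.06 CPM at 8 h, and at 4.16, 6.73, 5.24 and 5.66 CPM at 20 h. In KO it was at 8.4, 8.75, 7.63 and 6.48 CPM at 0 h, at 10.3, 14.1, 11.6 and 8.78 CPM at 8 h, and at 5.45, 4.88, 5.4 and 5.53 CPM at 20 h. All 8 h libraries were above all 20 h libraries of the same genotype. At 16 h, replicate 2 of WT (9.8 CPM) and replicate 3 of KO (12 CPM) lay inside the 8 h range of their genotype. For this gene and those below, the times set side by side were picked after the values were seen. Whether their libraries overlap therefore describes the values and adds no support to the calls. The fit gave an amplitude of 0.62 with a peak at 7.79 h in WT (adjusted p = 7.6e-04, edgeR) and of 0.64 at 6.86 h in KO (adjusted p = 8.4e-04, edgeR).

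Sdhd (chromosome 9, 50404443 to 50411954, mm9) encodes a membrane anchor of succinate dehydrogenase. In WT it was at 247, 316, 196 and 272 CPM at 0 h and at 422, 414, 285 and 392 CPM at 12 h, where only the third library reached down into the 0 h range. In KO it was at 227, 278, 253 and 273 CPM at 0 h and at 435, 355, 390 and 420 CPM at 12 h, with no overlap. Amplitudes were 0.28 in WT with a peak at 9.94 h (adjusted p = 0.00857, edgeR) and 0.33 in KO with a peak at 9.26 h (adjusted p = 0.00158, edgeR).

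Ndufa11 (chromosome 17, 56857185 to 56863671, mm9), an accessory subunit of the membrane arm, had WT libraries at 92.1, 74.1, 70.0 and 93.5 CPM at 12 h and at 50.6, 50.1, 59.1 and 59.1 CPM at 20 h, without overlap (amplitude 0.28, peak 10.0 h, adjusted p = 0.0145, edgeR). In KO the 12 h libraries were at 85.1, 94.6, 86.9 and 82.5 CPM and the 16 h libraries at 51.9, 49.2 and 67.0 CPM, which did not overlap. The KO amplitude was 0.24 with a peak at 8.97 h (adjusted p = 0.0383, edgeR). Ndufs8 (chromosome 19, 3908870 to 3912717, mm9), a core subunit that holds iron-sulfur clusters, was at 106, 96.2, 71.5 and 72.6 CPM at 12 h and at 60.8, 56.2, 78.0 and 58.3 CPM at 20 h in WT, with 1 library of 20 h above 2 of 12 h. In KO it was at 113, 106, 98.1 and 84.7 CPM at 12 h and at 63.0, 63.2, 79.2 and 79.7 CPM at 20 h, without overlap. Its amplitudes were 0.27 in WT (peak 10.6 h, adjusted p = 0.0224, edgeR) and 0.29 in KO (peak 8.44 h, adjusted p = 0.0135, edgeR).

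Atp5g2 (chromosome 15, 102493299 to 102501478, mm9), 1 of 3 genes for the c subunit, had the smallest called amplitude, 0.18 in WT (peak 10.6 h, adjusted p = 0.0259, edgeR) and 0.19 in KO (peak 11 h, adjusted p = 0.0192, edgeR). Its KO libraries were at 51.3, 61.0, 57.8 and 60.4 CPM at 0 h and at 73.3, 85.3, 91.2 and 84.7 CPM at 12 h, which did not overlap. Atp5o, the stalk subunit known as OSCP, was called in KO with an amplitude of 0.32 (peak 11.2 h, adjusted p = 0.00948, edgeR). Its KO libraries were at 305, 312, 295 and 307 CPM at 12 h, above every KO library of 0 h, 4 h, 16 h and 20 h. In WT its amplitude was 0.24 (peak 10.2 h, adjusted p = 0.0858, edgeR). Complex IV came closest to the threshold with Cox6b1, at 0.30 in WT (peak 9.79 h, adjusted p = 0.0546, edgeR) and 0.32 in KO (peak 8.92 h, adjusted p = 0.0526, edgeR).

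**Figure D5:**
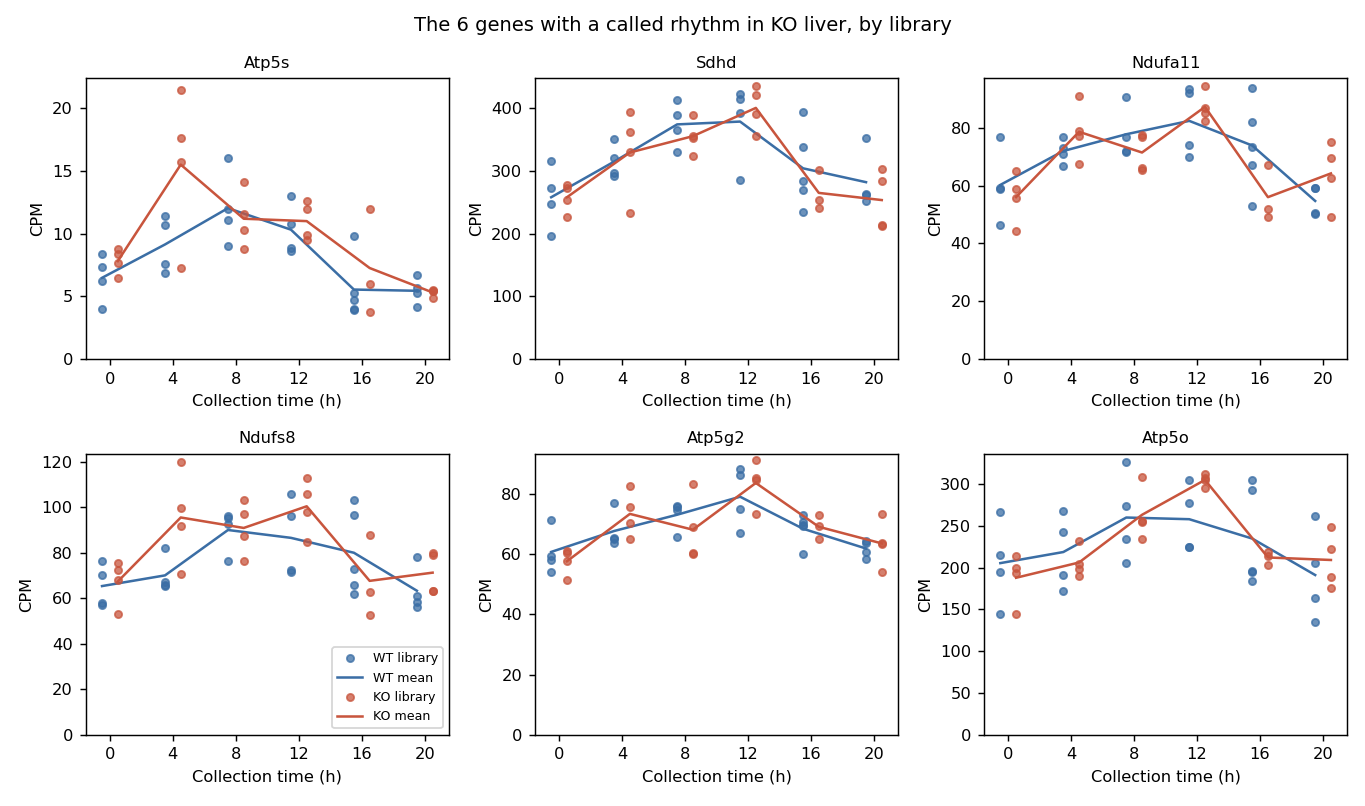
CPM of the 6 genes with a called rhythm in KO (vertical axes, starting at 0) against collection time in hours, with 1 point per library and lines through the group means, WT in blue and KO in red. WT and KO are drawn slightly apart at each time, the mean of each gene is highest between 4 h and 12 h in both genotypes, and the WT and KO points overlap at most times.

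The number of rhythm calls depended on single libraries. Leaving out replicate 3 of KO at 16 h gave 23 calls in WT, against 19.5% of all genes, and 30 in KO, against 26.6%. Leaving out replicate 3 of WT at 0 h, the library with adrenal markers, gave 5 calls in WT against 14.8% of all genes. The WT count was 6 without replicate 1 of WT at 12 h (14.3% of all genes), 7 without replicate 4 of WT at 0 h (15%) and 7 without replicate 2 of WT at 8 h (13.8%). It was 22 without replicate 3 of WT at 12 h (18.6% of all genes) and 22 without replicate 2 of WT at 20 h (21.9%). The KO count was 13 without replicate 1 of KO at 8 h (18% of all genes) and 11 without replicate 3 of KO at 20 h (18.3%). Without the adrenal-marked library, the pancreas-marked one and replicate 2 of KO at 16 h together, 4 genes were called in WT, against 15.2% of all genes. With the GC term taken out, 23 genes were called in WT (9 of the first 12 among them) against 23.1% of all genes, and 14 in KO (all of the first 6) against 19.6%. Fitted peaks between 6 h and 14 h were then 75 of 80 in WT, against 32% of all genes, and 72 of 80 in KO, against 31.7%. Ndufa11, Sdhd and Atp5s kept their WT call under every edgeR alternative tried, and Ndufs8, Sdhd, Atp5o and Atp5s their KO call. For single genes, the rhythm calls of DESeq2 were not compared.

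Of the 5 genes called in both genotypes, 4 have a promoter in the RefSeq table for GRCm38.p6, a window of 300 bases from 250 before the start of transcription to 50 after it. They are shown because these are the genes whose rhythm was called in both genotypes. Capitals mark matches on either strand to CCGGAAG (bound by ETS factors such as GABPA), GCGCATGC (bound by NRF1) or AGGTCA (the nuclear receptor half-site). Each is printed 5′ to 3′ on the gene's own strand. Ndufs8 lies at chr19:3912725-3913024 on the minus strand, Ndufa11 at chr17:56717512-56717811 on the plus strand, Sdhd at chr9:50603800-50604099 on the minus strand and Atp5g2 at chr15:102670998-102671297 on the minus strand.
Ndufs8: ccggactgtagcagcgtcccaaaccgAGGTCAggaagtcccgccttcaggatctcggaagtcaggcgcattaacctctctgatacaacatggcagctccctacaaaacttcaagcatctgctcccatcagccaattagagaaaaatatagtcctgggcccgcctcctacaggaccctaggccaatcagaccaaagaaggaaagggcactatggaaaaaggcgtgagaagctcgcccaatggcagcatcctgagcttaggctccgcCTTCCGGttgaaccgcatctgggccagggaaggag
Ndufa11: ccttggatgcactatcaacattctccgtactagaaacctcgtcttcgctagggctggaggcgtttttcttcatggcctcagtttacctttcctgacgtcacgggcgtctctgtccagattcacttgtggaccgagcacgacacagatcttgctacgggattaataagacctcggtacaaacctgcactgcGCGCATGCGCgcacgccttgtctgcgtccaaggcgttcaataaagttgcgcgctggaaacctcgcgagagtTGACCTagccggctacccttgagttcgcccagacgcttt
Sdhd: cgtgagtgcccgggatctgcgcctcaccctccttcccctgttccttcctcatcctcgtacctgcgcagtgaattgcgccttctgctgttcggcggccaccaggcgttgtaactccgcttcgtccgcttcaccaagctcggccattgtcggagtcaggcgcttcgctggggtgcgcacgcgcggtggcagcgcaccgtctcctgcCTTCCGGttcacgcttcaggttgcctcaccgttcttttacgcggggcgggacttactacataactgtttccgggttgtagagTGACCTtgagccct
Atp5g2: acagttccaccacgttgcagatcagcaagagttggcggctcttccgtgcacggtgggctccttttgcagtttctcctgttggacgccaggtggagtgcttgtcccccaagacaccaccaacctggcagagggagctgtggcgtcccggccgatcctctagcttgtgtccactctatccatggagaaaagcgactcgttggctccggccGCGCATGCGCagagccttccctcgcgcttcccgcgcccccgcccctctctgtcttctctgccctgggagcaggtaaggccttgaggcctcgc

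Ndufs8 and Sdhd each held 1 CCGGAAG and 1 AGGTCA, Ndufa11 held GCGCATGC on both strands in overlap and 1 AGGTCA, and Atp5g2 held GCGCATGC on both strands in overlap. None of the 4 held the E-box CACGTG, to which BMAL1 and CLOCK bind, or the D-box TTANGTAA in this window. Of the 80 genes, 65 had a promoter in the table. CCGGAAG was in 17 of them, or 26.2% against 9.12% of all 27025 promoters, and GCGCATGC in 10, or 15.4% against 2.8%. AAGATGG, bound by YY1, was in 13.8% against 6.48%, AGGTCA in 23.1% against 16%, CACGTG in 7.69% against 7.24% and TTANGTAA in 3.08% against 2.34%. The shares over all promoters include genes that did not pass the filter on low counts. Promoters of other genes expressed in liver were not compared, so these contrasts are not shown to be particular to the respiratory chain. The 5 promoters with CACGTG were those of Ndufv1, Ndufa7, Atp5g1, Atp5g3 and Atp5l. By edgeR with all libraries in and no GC term, none of these 5 genes had a called rhythm or genotype difference. Rhythms were called there for 16.3% of all genes in WT and 17% in KO. With the GC term taken out, Ndufa7 and Atp5l had a called rhythm in WT (23.1% of all genes) and Ndufa7 in KO (19.6%). A match is a description of the letters and not a measurement of binding.

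Across the 48 libraries the 80 genes moved largely along a pair of directions. The first principal component of their centred log2 levels held 57.5% of the variance and the second 20.8%. The 20 genes with the strongest weights on the first, led by Ndufc2, Cox7b, Atp5j2 and Uqcrb, had a median transcript GC content of 49.1%, and the 20 on the second, led by Uqcrc1, Atp5d, Ndufb7 and Ndufv1, a median of 56%. Each direction mixed genes of several complexes. Across the 80 genes, which share these libraries, the weights had a correlation with GC content of -0.56 on the first component and 0.62 on the second.

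The genes that act around the respiratory chain were read from lists chosen for this description, and over the 6 times none of their members was called between genotypes. Among 16 transcriptional regulators, 10 estimates were higher in KO (median 0.15), against 48.9% of all genes (median -0.005). Esrra, which encodes the estrogen-related receptor ERRα, averaged 35.7 ± 9.25 CPM (SD, n = 25) among WT livers and 29.9 ± 6.71 CPM (SD, n = 23) among KO livers, a difference of -0.25 ± 0.10 (log2, SE, adjusted p = 0.194, edgeR). Esrrg, its relative, averaged 8.34 ± 3.9 CPM (SD, n = 25) among WT livers against 11 ± 5.29 CPM (SD, n = 23) in KO, or 0.37 ± 0.15 (log2, SE, adjusted p = 0.204, edgeR). These related receptors therefore had estimates of opposite sign, neither past the test.

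Among the other regulators, the estimates were 0.15 ± 0.07 for Tfam, which packages and transcribes mitochondrial DNA, 0.14 ± 0.11 for Gabpa, 0.25 ± 0.16 for the coactivator gene Ppargc1a, -0.20 ± 0.24 for Ppargc1b and -0.01 ± 0.06 for Nrf1 (log2, SE). The mitochondrial RNA polymerase gene Polrmt was at -0.45 ± 0.21 (log2, SE, adjusted p = 0.264, edgeR). A WT rhythm was called for 2 of the 16, or 12.5% against 16.3% of all genes. These were Gabpb1, the partner subunit of GABPA, with a peak at 5.17 h (adjusted p = 0.00285, edgeR), and Esrrg with a peak at 8.21 h (adjusted p = 0.00395, edgeR). In KO a rhythm was called for 5 of the 16, against 17% of all genes. They were these 2 with Nrf1, which encodes the NRF1 factor (adjusted p = 0.0195, edgeR), Esrrb (adjusted p = 0.0375, edgeR) and Tfb1m (adjusted p = 0.0244, edgeR). A call in 1 genotype alone does not show a difference between them.

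Over all genes, 48.9% of estimates were higher in KO, and a rhythm was called for 16.3% in WT and 17% in KO. No difference between these shares and those of the lists below was tested. Of 30 assembly factors, 22 estimates were higher in KO (median 0.07), and 4 had a called rhythm in WT and 6 in KO. The lowest p was that of the complex I factor Acad9 at 0.24 ± 0.08 (log2, SE, adjusted p = 0.117, edgeR). Sco2, the copper chaperone of complex IV, peaked at 22.7 h in WT with an amplitude of 0.88 (adjusted p = 4.1e-05, edgeR), outside the window that held most subunit genes. Of 19 genes for electron carriers and coenzyme Q synthesis, 4 had a called rhythm in KO and 3 in WT: Adck3 with a peak at 22.9 h, Coq10b at 12.2 h with an amplitude of 1.01 (adjusted p = 2e-05, edgeR), and Cyc1, the cytochrome c1 of complex III that the symbol rule does not take, at 12.4 h with an amplitude of 0.30 (adjusted p = 0.0333, edgeR). Among 24 genes of the tricarboxylic acid cycle and pyruvate dehydrogenase, 3 had a called rhythm in KO and 6 in WT, among them Pdk4, a kinase that shuts off pyruvate dehydrogenase, with an amplitude of 1.65 and a peak at 21.2 h (adjusted p = 5.5e-04, edgeR). Of 18 tested carriers and porins, 3 had a called rhythm in KO, and Vdac1, with a peak at 12.1 h, was the 1 called in WT.

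Mitochondrial ribosomal protein genes had 23 of 75 called rhythms in WT, cytosolic ribosomal protein genes 18 of 79 and proteasome genes 8 of 36, beside the 12 of 80 of the respiratory chain and 16.3% of all genes. In KO the counts were 18, 9 and 9, beside 6 of 80 and 17% of all genes. No difference between these shares was tested. Their median genotype differences over the 6 times were 0.05 for each of these 3 lists, beside 0.04 for the respiratory chain and -0.005 for all genes.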

How the data were processed

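Messenger RNA of 48 mouse livers was sequenced from poly-A selected TruSeq v2 libraries, which do not mark strand, per the labels' protocols. Values are whole-number counts per gene as deposited by the authors, who used CASAVA, STAR 2.4.1d and the mm9 genome, per the submitters' processing notes; the counting tool and its handling of reads shared between genes were not given in the sources used here. Near-identical copies, such as pseudogenes of many subunit genes, and overlapping genes are therefore uncertain. Totals of 12841969 to 13009797 counts per library are nearly equal, so depth does not separate the groups, and the origin of that equality was not given.

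Alb was left out of totals, TMM factors were computed, and edgeR 4.0.16 (R 4.3.3) filtered 22353 genes to 13646 (filterByExpr, minimum count 10, minimum total 15) and fitted 1 quasi-likelihood model of 12 genotype-by-time groups and 1 with a 24 h cosine per genotype. Benjamini-Hochberg adjustment covered every tested gene, calls were made at 0.05, and the 80 genes were read from the whole-table fits. Fold changes are KO minus WT. Amplitudes and peaks are least-squares values on log2 CPM with a prior count of 2. Both fits were tested on simulated data. Transcript lengths and GC content are medians over GENCODE vM21 (GRCm38) transcripts, with a value for 97.6% of genes tested and all 80 members. Promoters are from RefSeq's GRCm38.p6 table, matched by Ensembl ID and, where no ID was found, by symbol. Promoter coordinates are on that build, gene coordinates on mm9.

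Members and gene lists were chosen with earlier results of these data known. Genes named are the 6 with the lowest p in the mean difference, interaction and rhythm tests, the 2 lowest at each time, and the leading gene of each complex and list in the mean difference, the WT rhythm and the level per kb; the further genes whose library values are printed were chosen after their values were seen. Alternatives were RLE or upper-quartile factors, no filter, DESeq2 1.42.0, each library left out, 3 libraries left out together, no 16 h groups, a replicate block and a GC offset. The 3 were the adrenal-marked WT library, the pancreas-marked KO library and replicate 2 of KO at 16 h. That last library was highest in none of the marker sums. The WT library with lymphocyte markers was not among the 3.

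Replicate numbers recur between genotypes. Deviations of same-numbered WT and KO libraries from their group means correlated over 0.1 in 13 of 23 pairs (-0.361 to 0.542). All 4 pairs at 4 h were among them (0.231 to 0.46). The labels name no pairing and this pattern was seen in the data, so whether the numbers pair mice is not known. The main tests used no pairing. For the genotype tests the replicate block paired same-numbered libraries at every time. For the rhythm tests it held a term for each replicate number over all times. No 2 libraries agreed within sampling noise (lowest chi-square per degree of freedom between replicates 20.7).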

Additional observations from a re-analysis of the deposited data

Results flagged for a closer look

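For 16 quantities (the summed levels of all 80 genes and of complexes I to V, and the CPM of 10 genes), a library was marked where its gap to the nearest other library took an unusually large share of its group's range. This was examined in 176 groups of 4 or 5 libraries and marked 11, where chance marks about 1 group in 20, so the number is near what chance gives.

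In replicate 3 of WT at 4 h, Ndufs8 was at 82.0 CPM (others 65.5 to 67.1) and Atp5g2 at 76.9 CPM (others 63.6 to 65.2). In replicate 4 of WT at 4 h, Atp5j was at 210 CPM (others 225 to 227) and the sum of complex III at 1975 CPM (others 2161 to 2193). Ndufb3 was at 84.4 CPM in replicate 1 of KO at 4 h (others 137 to 146), the library whose removal gives 26 calls at that time. Atp5g2 was also at 65.6 CPM in replicate 4 of WT at 8 h (others 74.8 to 76.1) and at 59.9 CPM in replicate 5 of WT at 16 h (others 69.2 to 72.9). Atp5s was at 9.8 CPM in replicate 2 of WT at 16 h (others 3.91 to 5.31). Sdhd was at 352 CPM in replicate 2 of WT at 20 h (others 251 to 263). In KO at 12 h, Ndufs7 was at 110 CPM in replicate 4 (others 83.0 to 86.0) and Ndufv3 at 122 CPM in replicate 2 (others 102 to 104).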

How the results depend on the processing

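The mean genotype difference, the differences at 0, 8, 12, 16 and 20 h, the interaction and the rhythm difference had 0 genes called in every alternative run. For the mean difference the share of all genes called ranged from 0.546% with no filter to 3.55% without replicate 1 of KO at 4 h. For the rest it was at most 0.022% by edgeR with all libraries in, so a count of 0 there says little about these genes. At 4 h the count of 0 became 4 without both 16 h groups (4.07% of all genes called). It ranged from 0 to 26 over the fits that left out 1 library each, with 24.6% of all genes called in the fit that gave 26. The replicate block left it at 0, and changed no other genotype count; with it 15 of 80 estimates at 16 h were higher in KO (33 without it). The 12 rhythm calls in WT became 7 with no filter (8.56% of all genes called) and 4 without the 3 libraries left out together (15.2%). They became 23 with the GC offset (23.1%), 28 with the GC offset and replicate block (22.1%), and 5 to 23 with 1 library left out. The 6 in KO became 12 with the replicate block (17.7%), 15 without both 16 h groups (20.1%), 14 with the GC offset (19.6%), 17 with the GC offset and replicate block (19.9%), 13 with DESeq2 (20.3%), and 4 to 30 with 1 library left out. The GC offset, its block and the single-time fits without 16 h were added after the data had been seen. Values of named genes under the alternatives numbered 1916, with DESeq2 left out for the rhythms. Of these, 1822 kept their direction and side of the threshold, 82 no longer passed it, 11 newly passed it and 1 changed sign. The last was Ndufs7, whose mean difference was 0.004 with the GC offset. The cause of these changes was not tested. The median standard error at a single time was 0.22 (log2), and differences of 1 gene well above that size also stayed short of the threshold. At 4 h, for example, Atp5j2 was at 0.82 ± 0.29 (log2, SE, adjusted p = 0.132, edgeR) and was not called.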
